A study of Mus musculus with 35 samples.

Results

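Sox17, Gata6 and Foxa2, 3 genes for transcription factors of the endoderm, were examined for open chromatin, H3K4me3 and H3K27me3 in mouse fibroblasts on day 4 of a chemical treatment. Their members were the rows of the 3 RPKM tables and the listed peaks that lay within 10 kb of the gene bodies in the mouse build mm9. The bodies were chr1:4481008-4486494 for Sox17, chr18:11052500-11085600 for Gata6 and chr2:147868500-147872700 for Foxa2. This gave 9 rows of 68221 and 536 listed peaks of 8895103. The rows were 3 of 36431 for ATAC-seq (Gata6 2, Foxa2 1, Sox17 0), 1 of 12566 for H3K4me3 (Gata6) and 5 of 19224 for H3K27me3 (Sox17 2, Gata6 2, Foxa2 1).

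The cells were embryonic fibroblasts from ICR mice. ATAC-seq covered 7 treatments with 2 libraries each (Ctr, Basal, AE, C6AE, 6FAE, CFAE and C6FAE). ChIP-seq covered the last 6 of these with 1 library for each mark and 1 input. The letters name the chemicals: C is CHIR99021, which inhibits the kinase GSK3, F is Forskolin, which activates adenylyl cyclase, 6 is an inhibitor of the TGF-beta receptor, A is AM580, an agonist of a retinoic acid receptor, and E is EPZ004777, an inhibitor of the histone methyltransferase Dot1l. What Basal and Ctr cells received is not given in the sources used here beyond these names. Comparisons with and without Forskolin set C6FAE, 6FAE and CFAE against C6AE, AE and Basal, with Ctr in neither group. By their names these groups differ in more than Forskolin, since AE also lacks C and 6. Only C6FAE against C6AE differs in Forskolin alone, so elsewhere its part cannot be told apart from that of the other chemicals. For the ChIP-seq, 1 library of each mark is titled as a control but carries the treatment C6FAE in its labels, so it entered no comparison. The study's methods describe the control libraries and those of its chemically induced state as biological replicates, whereas for the other treatments no source used here says this, so the spread between their libraries may be technical. Other marker genes of fibroblasts and endoderm were not analysed here, since the files name no genes and no annotation of their build was used.

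Sox17, an SRY-box factor, specifies definitive endoderm and acts in extraembryonic endoderm and in blood vessels. Gata6, a zinc finger factor, drives primitive endoderm and also acts in heart and other mesoderm. Foxa2, a forkhead factor, opens chromatin in endoderm, node, notochord and floor plate. In cells of other lineages, such genes are typical targets of Polycomb, which deposits H3K27me3 over broad domains, while H3K4me3 marks the starts of active and poised genes. A start that carries both marks is called bivalent.

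The 3 RefSeq start windows of Foxa2 are shown, each with 250 bases before and 50 after a start, since Foxa2 was the only gene of the 3 with an entry in the sequence table. In GRCm38.p6, on the minus strand, they are chr2:148046920-148047219 (start 1), chr2:148045899-148046198 (start 2) and chr2:148045415-148045714 (start 3), so starts 2 and 3 lie 1021 and 1505 bp downstream of start 1. This build is not that of the files, so the windows were not placed on the peaks. Capitals mark CpG.
Foxa2 start 1: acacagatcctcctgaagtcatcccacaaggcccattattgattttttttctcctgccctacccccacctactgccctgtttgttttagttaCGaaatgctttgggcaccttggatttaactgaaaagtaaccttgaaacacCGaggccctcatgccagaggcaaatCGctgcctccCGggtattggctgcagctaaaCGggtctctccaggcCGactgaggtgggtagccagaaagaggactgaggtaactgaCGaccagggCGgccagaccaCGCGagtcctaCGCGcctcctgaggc
Foxa2 start 2: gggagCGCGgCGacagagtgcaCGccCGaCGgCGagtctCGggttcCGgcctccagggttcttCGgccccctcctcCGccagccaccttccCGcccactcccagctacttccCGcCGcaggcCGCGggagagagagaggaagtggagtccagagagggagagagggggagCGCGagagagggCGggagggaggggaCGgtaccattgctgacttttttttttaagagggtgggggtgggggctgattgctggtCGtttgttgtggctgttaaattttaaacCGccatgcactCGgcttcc
Foxa2 start 3: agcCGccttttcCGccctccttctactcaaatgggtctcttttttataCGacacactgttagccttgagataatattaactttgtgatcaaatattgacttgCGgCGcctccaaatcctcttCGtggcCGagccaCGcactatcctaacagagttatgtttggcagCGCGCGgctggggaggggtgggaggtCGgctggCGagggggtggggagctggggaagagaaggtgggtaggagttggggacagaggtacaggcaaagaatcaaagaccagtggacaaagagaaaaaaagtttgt
The windows hold 12, 23 and 13 CpG, against a median of 7 over 32851 RefSeq windows of the same length, and 60.4, 78.5 and 62.1% of all windows hold fewer. The cAMP response element TGACGTCA was found in none of the 3 and in 1.79% of all windows. Its shorter form TGACG, searched with its reverse complement CGTCA, was found once in the first window and in 20.8% of all windows. The TCF/LEF core CTTTGA, searched on both strands, was found once in the third window and in 16% of all windows. The same window held TATAAA once on either strand, which 13.6% of all windows hold. A match is a description of these letters only.

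ATAC-seq libraries held 3346418 to 8764791 tags, H3K4me3 libraries 745089 to 7103488 and H3K27me3 libraries 633980 to 6392309, with C6AE the shallowest for H3K4me3 and 6FAE for H3K27me3. The level of a locus in a library was taken as the highest fold enrichment of a listed peak in its window. In every library this fold equals the pileup of tags plus 1, divided by the genome-wide background plus 1, within 2%. A library with few tags therefore has a compressed fold, and a depth-scaled pileup (tags at the peak per 1000000 tags of the library) is given beside it where the direction or the call differs. A listed peak is called enriched when its listed -log10 q is at least 1.3, and 810 to 15909 peaks passed in the ATAC-seq libraries.

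Open chromatin at Gata6 lay over its start in every library. All 14 ATAC-seq libraries listed a peak over the Gata6 start, and in 11 of them it was the strongest of the window. In Ctr replicate 1 (2.84), C6AE replicate 2 (2.66) and CFAE replicate 1 (2.93) the strongest peak lay upstream, beside 2.65, 2.52 and 2.72 over the start. The strongest peak of the window exceeded 90.4 to 99.2% of the peaks listed in its library. The highest fold enrichment was 2.84 and 2.78 in Ctr, 2.92 and 2.83 in Basal, 2.50 and 3.01 in AE and 2.44 and 2.66 in C6AE. With Forskolin it was 2.96 and 3.09 in 6FAE, 2.93 and 3.02 in CFAE and 3.09 and 3.22 in C6FAE. The 6 libraries with Forskolin (lowest 2.93, median 3.05, highest 3.22) lay mostly above the 6 of C6AE, AE and Basal (lowest 2.44, median 2.75, highest 3.01), with some overlap. The mean of log2 fold enrichment was 1.61 ± 0.05 (SD, n = 6) with and 1.44 ± 0.12 (SD, n = 6) without Forskolin. The difference was 0.17 with an exact two-sided permutation p = 0.00866, where the smallest p of the 924 splits is 0.00216. This test counts both libraries of a treatment as separate units, so its p does not measure the spread between treatments. Taking only the peak over the start, an alternative chosen after seeing the data, gave 2.72 to 3.22 with and 2.44 to 3.01 without Forskolin (difference 0.16, exact permutation p = 0.039). On depth-scaled pileup the difference was 0.08 (exact permutation p = 0.444), so this call ended on that scale. The libraries with Forskolin held 4960248 to 8764791 tags and 1027 to 15909 enriched peaks, those without it 3346418 to 7337786 tags and 810 to 7313 enriched peaks, and the part of depth in the result was not tested.

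Enriched peaks at the Gata6 start were listed in 3 libraries, both of C6FAE and replicate 2 of 6FAE. They ran from -2113 to 3209 bp in C6FAE replicate 1, from -1197 to 2490 bp in C6FAE replicate 2 and from -629 to 3098 bp in 6FAE replicate 2, counted from the start. Their -log10 q was 1.39, 1.44 and 1.42, just inside the threshold. The strongest peaks of AE replicate 2 (1.18) and CFAE replicate 2 (1.07) fell just outside it. No other ATAC-seq library had an enriched peak at Gata6.

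Sox17 had weaker and less regular ATAC-seq peaks. Its highest fold enrichment was 2.48 and 2.06 in Ctr, 2.41 and 2.04 in Basal, 2.27 and 2.12 in AE and 2.11 and 2.45 in C6AE. It was 2.28 and 2.44 in 6FAE, 3.02 and 2.33 in CFAE and 2.61 and 1.87 in C6FAE, so both the highest and the lowest library were treated with Forskolin. The lowest fold that a library lists ran from 1.70 in CFAE replicate 1 to 2.13 in CFAE replicate 2, which limits such an order. The lowest value, 1.87 in C6FAE replicate 2, exceeded 44.9% of the peaks of its library, whereas 2.04 in Basal replicate 2 was the lowest fold its library listed. The difference in mean log2 between libraries with and without it was 0.11 (exact permutation p = 0.331). Listed peaks covered 6.98 to 25.0% of the Sox17 window with Forskolin (median 14.6%) and 1.57 to 15.5% in C6AE, AE and Basal (median 6.63%). In Ctr, which is in neither group, they covered 11.3 and 25.1%, the latter above every library with Forskolin. Only 4 of 14 libraries listed a peak over the start: both of C6FAE (2.24 and 1.87), CFAE replicate 2 (2.16) and Ctr replicate 2 (1.89). No ATAC-seq peak at Sox17 was enriched, and the strongest, in CFAE replicate 1, had a -log10 q of 1.09.

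Foxa2 showed no regular order of the treatments in ATAC-seq. Its highest fold enrichment was 2.39 and 2.42 in Ctr, 2.65 and 2.44 in Basal, 2.55 and 2.49 in AE and 1.99 and 2.46 in C6AE. It was 2.42 and 3.07 in 6FAE, 2.18 and 2.58 in CFAE and 3.17 and 1.92 in C6FAE. The highest and the lowest of all 14 values were thus the 2 C6FAE libraries. As at Sox17, the lists begin at different folds, and the lowest value exceeded 52.2% of the peaks of its library. With and without Forskolin, mean log2 differed by 0.06 (exact permutation p = 0.660), and by -0.06 on depth-scaled pileup (exact permutation p = 0.682). A peak over the start was listed in 4 libraries, AE replicate 1 (2.49), C6FAE replicates 1 and 2 (2.24 and 1.78) and Ctr replicate 2 (1.84). The single enriched peak, in C6FAE replicate 1, lay beyond the 3' end, from 5953 to 7779 bp downstream of the start.

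**Figure D1:**
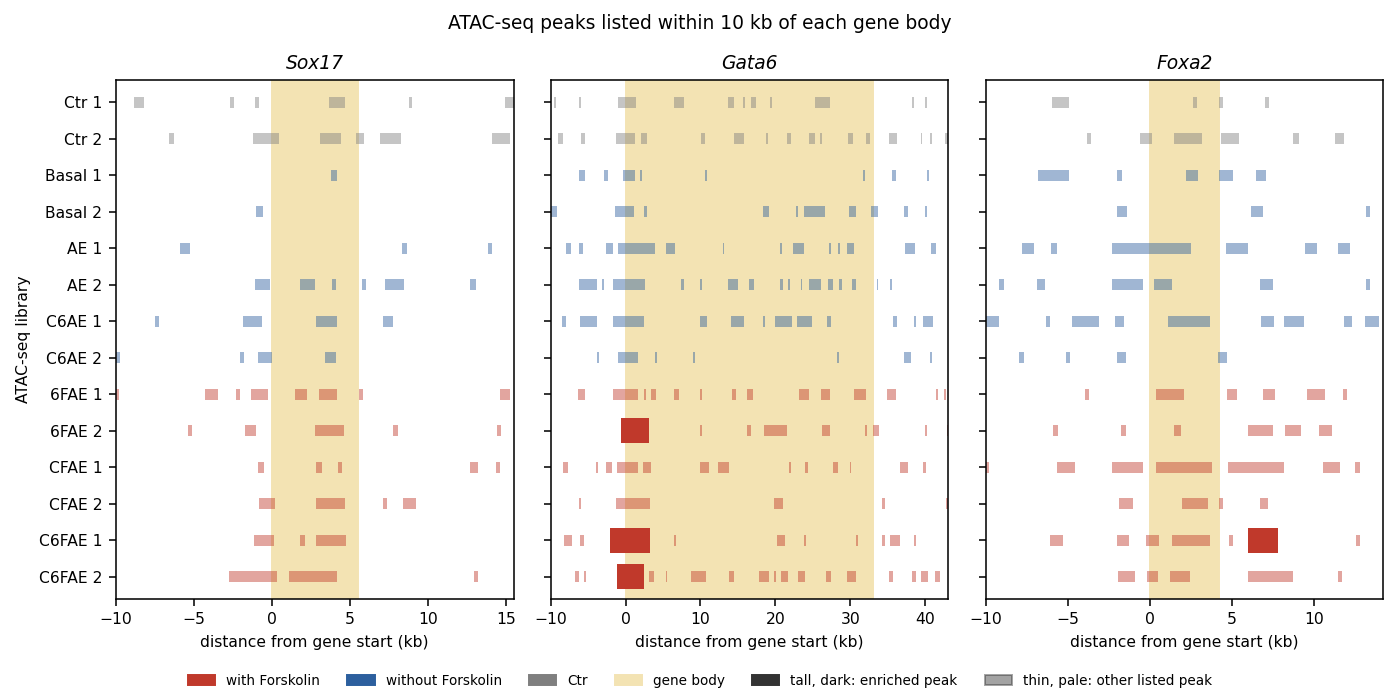
ATAC-seq peaks listed in each of the 14 libraries (rows) by distance in kb from the start of Sox17, Gata6 and Foxa2. Shading marks the gene body, tall dark bars the 4 enriched peaks and thin pale bars the other listed peaks. The Gata6 start has a listed peak in all 14 libraries, whereas the Sox17 and Foxa2 starts have one in 4 each.

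Across the 36431 regions of the ATAC-seq table, limma on log2 of the highest fold enrichment called 0 regions in either direction (0%) at an adjusted p under 0.05. This held for C6FAE against Ctr, C6AE, 6FAE and CFAE and for all treatments with against all without Forskolin. At an unadjusted p under 0.05 it counted 4369, 3535, 1213, 1037 and 3699 regions in these comparisons, of which 0 were among the 3 regions at the loci. In C6FAE against Ctr, the region over the Gata6 start differed by 0.22 (SE 0.25, 95% interval -0.33 to 0.76, limma adjusted p = 0.733), while the median over all regions was 0.28. The region 3' of Foxa2 differed by 0.79 (SE 0.48, 95% interval -0.25 to 1.83, limma adjusted p = 0.534). In its C6FAE libraries the fold enrichment was 3.17 and 1.91, against 2.03 and no listed peak (entered as 1) in Ctr. The difference was 0.28 without Ctr replicate 2, 0.43 without C6FAE replicate 1, 1.15 without C6FAE replicate 2 and 1.3 without Ctr replicate 1. The short region upstream of Gata6, from -8335 to -7756 bp, differed by 0.69 (SE 0.55, 95% interval -0.50 to 1.89, limma adjusted p = 0.622), by 0 without C6FAE replicate 1 and by 1.38 without C6FAE replicate 2. It had a listed peak in 4 of 14 libraries, replicate 1 of AE (1.90), C6AE (2.00), CFAE (2.93) and C6FAE (2.61). No replicate 2 library listed a peak there. With against without Forskolin, the region over the Gata6 start differed by 0.16 (SE 0.14, limma adjusted p = 0.739), beside a median of 0.13 over all regions.

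Omitting 1 chemical from C6FAE moved none of the 3 regions past the test. Against C6AE, which lacks Forskolin, the region over the Gata6 start was 0.35 higher in C6FAE (SE 0.25, 95% interval -0.20 to 0.89, limma adjusted p = 0.592) and the region 3' of Foxa2 0.83 higher (SE 0.48, 95% interval -0.21 to 1.87, limma adjusted p = 0.537), beside a median of 0.30 over all regions. The latter was 0.37 without C6AE replicate 2, 0.47 without C6FAE replicate 1, 1.20 without C6FAE replicate 2 and 1.3 without C6AE replicate 1. Against 6FAE, which lacks CHIR99021, the differences were 0.06 and 0.25, with a median over all regions of 0.14. Against CFAE, which lacks the compound coded 6, they were 0.14 and 0.18, with a median of -0.02. The intervals in these last comparisons reached from -0.48 to 0.60 and from -0.41 to 0.68 for Gata6, and from -0.79 to 1.29 and from -0.86 to 1.22 for Foxa2. The region upstream of Gata6 differed by 0.19 against C6AE, 0.69 against 6FAE and -0.08 against CFAE (SE 0.55 in each), and the difference against 6FAE was 0 without C6FAE replicate 1 and 1.38 without C6FAE replicate 2.

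RPKM (reads in a region over its length and the depth of the library) was deposited as 1 column per treatment, so it has no replicate check and no test. The rows were bounded by listed peaks. The row 3' of Foxa2 had the bounds of the enriched peak of C6FAE replicate 1, and the row upstream of Gata6 those of the strongest peak of CFAE replicate 1. The row over the Gata6 start began with a peak of C6FAE replicate 1 and ended with one of CFAE replicate 2. High values in those columns are therefore descriptions and no independent support. The row over the Gata6 start (5364 bp) had an RPKM of 18.4 in Ctr, 20.3 in Basal, 26.8 in AE, 19.2 in C6AE, 24.6 in 6FAE, 28.2 in CFAE and 30.6 in C6FAE. It exceeded 80.2 to 94.4% of all rows in each column. The row 3' of Foxa2 (1827 bp) had an RPKM of 4.70 in Ctr, 7.57 in Basal, 10.3 in AE, 7.77 in C6AE, 10.3 in 6FAE, 11.4 in CFAE and 18.3 in C6FAE. C6FAE was the highest column at both. The 580 bp row upstream of Gata6 was highest in CFAE (17.3) and C6FAE (11.4) and lowest in 6FAE (2.50) and Ctr (3.22).

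Counted at a difference of at least 1 in log2(RPKM + 1), a 2-fold change, 2 of these 3 rows were higher in C6FAE than in Ctr, as were 25.1% of all rows (4.42% were lower). They were the row 3' of Foxa2 (1.76) and the row upstream of Gata6 (1.56), and both stayed above 1 after the columns were scaled to a common median (1.22 and 1.05). The row over the Gata6 start differed by 0.71, beside a median of 0.50 over all rows, and by 0.12 after that scaling. The same 2 rows were higher than in C6AE (18.5% of all rows, with 3.66% lower), by 1.14 and 1.00, and fell to 0.64 and 0.53 after scaling. Against 6FAE only the row upstream of Gata6 passed (8.17% of all rows were higher and 3.48% lower), by 1.83. Against CFAE 0 rows passed (3.72% of all rows were higher and 5.64% lower). None of the 3 rows had all 3 treatments with Forskolin above the 3 without it, as 15.5% of all rows did, or all below, as 2.24% did.

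H3K4me3 was strongest at Gata6, with an enriched domain over the start in every library. The highest fold enrichment was 23.5 in Basal, 22.0 in AE, 11.8 in C6AE, 15.0 in 6FAE, 13.5 in CFAE and 11.2 in C6FAE, and 12 to 44 tags stacked at these peaks. The merged enriched peaks ran from -4585 to 5984 bp and included the ATAC-seq peak over the start in all 14 ATAC-seq libraries. The 3 values with Forskolin lay among or below those without it (difference in mean log2 -0.48, exact permutation p = 0.3, where the smallest possible p is 0.1). On depth-scaled pileup they did not overlap, with 4.43 to 5.49 with Forskolin and 6.46 to 16.4 without it (difference -0.95, exact permutation p = 0.1). The Gata6 row of the table (9606 bp) also had all 3 treatments with Forskolin below the 3 without it, with an RPKM of 20.6 in Basal, 26.9 in AE, 42.2 in C6AE, 16.9 in 6FAE, 17.5 in CFAE and 14.9 in C6FAE. In 65.4% of all H3K4me3 rows the 3 treatments with Forskolin were likewise all below the 3 without it, and in 0.00796% all above. Relative to the median of each column, the row was 1.16, 1.43 and 1.70 times the median in Basal, AE and C6AE and 1.51, 1.12 and 1.3 times in 6FAE, CFAE and C6FAE, and the groups overlapped. Against C6AE, the shallowest library, the row was at least 2-fold lower in C6FAE (-1.44), as were 53.3% of all rows (0.0955% were higher), and differed by -0.37 after median scaling. It did not pass against Basal (-0.44, with 13.3% of all rows lower and 0.485% higher), 6FAE (-0.17, with 0.979% lower and 1.87% higher) or CFAE (-0.22, with 3.6% lower and 0.159% higher).

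H3K4me3 at Sox17 was weaker than at Gata6 in every library and lay mainly inside the gene, except in Basal and, for the strongest peak, in AE. The highest fold enrichment was 2.62 in Basal, 5.65 in AE, 2.73 in C6AE, 4.56 in 6FAE, 4.90 in CFAE and 4.88 in C6FAE. The groups overlapped, since AE was the highest (difference in mean log2 with Forskolin 0.48, exact permutation p = 0.4). Enriched peaks between 2729 and 4941 bp downstream of the start were listed in 5 of 6 libraries, all but Basal. Of the ATAC-seq libraries, 12 of 14 listed a peak on this stretch. Upstream of the start, between -1353 and -102 bp, AE and CFAE had an enriched peak. That of AE, from -1353 to -688 bp, was its strongest (5.65). The only listed peak of Basal also lay upstream, from -806 to -214 bp, and was not enriched. Only 2 to 8 tags stacked at the strongest peaks, so differences between single libraries rest on few tags.

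At Foxa2 a peak with the highest H3K4me3 fold of the Foxa2 window lay inside the gene in AE, C6AE, 6FAE, CFAE and C6FAE. Only AE, 1 of 6, listed a peak over the start, and it shared the highest fold (3.77). In Basal a peak with the highest fold lay beyond the 3' end, from 5930 to 6207 bp, and another enriched peak lay between -124 and 3061 bp. C6AE also had an enriched stretch beyond the 3' end, from 6511 to 6893 bp. The highest fold enrichment was 3.14 in Basal, 3.77 in AE, 3.64 in C6AE, 2.61 in 6FAE, 6.12 in CFAE and 4.88 in C6FAE. CFAE and C6FAE were the highest and 6FAE the lowest, so the treatments with Forskolin enclosed those without it (difference in mean log2 0.28, exact permutation p = 0.5). On depth-scaled pileup the difference was -0.12 (exact permutation p = 1). Merged enriched peaks from -124 to 3061 bp came from 5 of 6 libraries, all but 6FAE, and 12 of 14 ATAC-seq libraries listed a peak there. A second stretch, from -2270 to -1367 bp, was enriched in AE, C6AE and C6FAE and held a listed ATAC-seq peak in 11 of 14 libraries. Pileup at the strongest peaks was 3 to 9 tags.

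**Figure D2:**
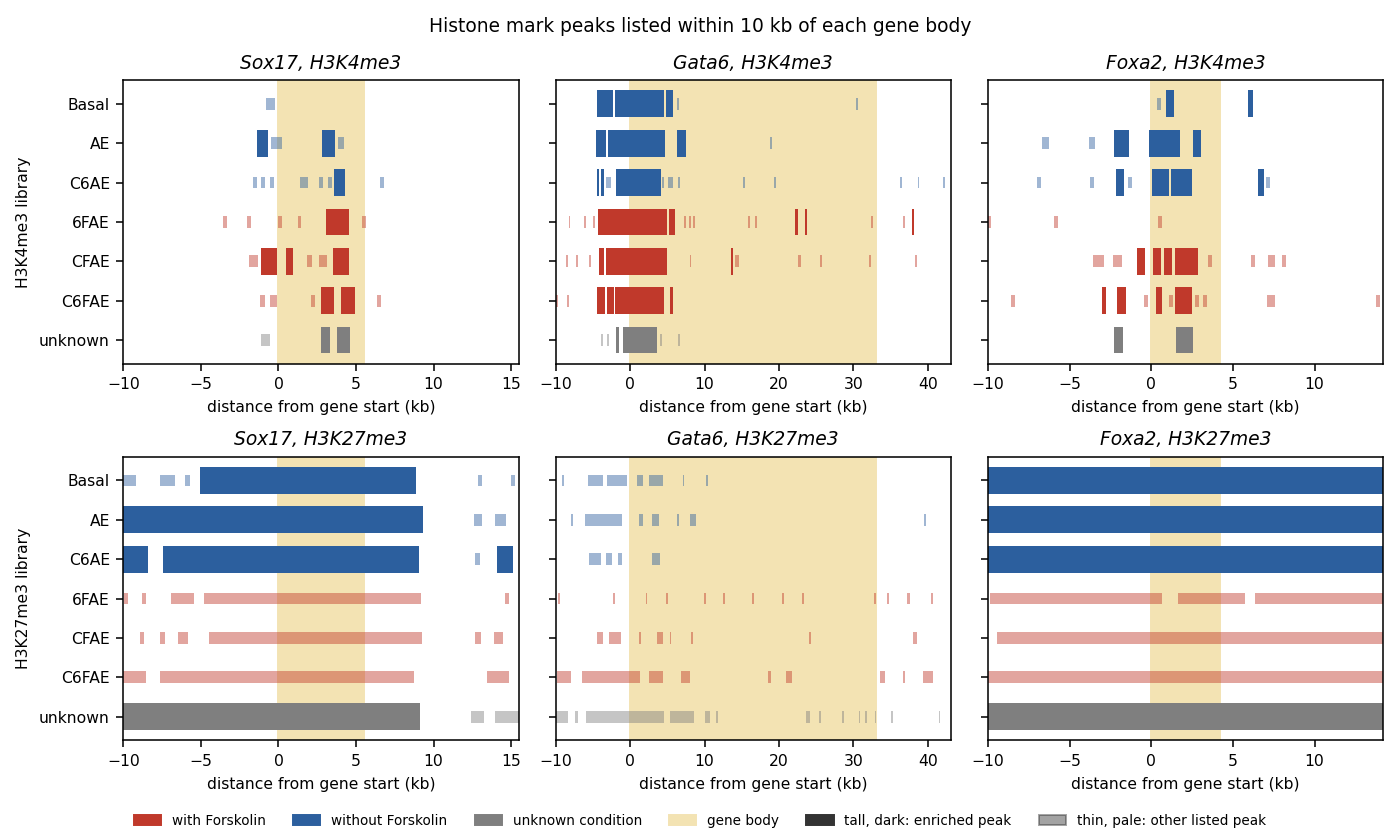
Peaks of H3K4me3 (top) and H3K27me3 (bottom) listed in the library of each treatment and in the library of unknown condition, by distance in kb from the start of each gene. Shading marks the gene body, tall dark bars enriched peaks and thin pale bars other listed peaks. Enriched H3K4me3 covers the Gata6 start in all libraries, and H3K27me3 spans all of Foxa2 and most of the Sox17 window.

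H3K27me3 formed a broad domain over the whole Foxa2 gene in every treatment. The listed peak that spanned the start was 43794 bp long in Basal, 55900 bp in AE, 29183 bp in C6AE, 39161 bp in CFAE and 31194 bp in C6FAE, and in 6FAE, the shallowest library, the domain was listed in 3 pieces. Listed peaks covered 92.9 to 100% of the window. The highest fold enrichment was 4.64 in Basal, 4.78 in AE, 4.60 in C6AE, 2.70 in 6FAE, 3.20 in CFAE and 3.05 in C6FAE. The 3 values with Forskolin lay below the 3 without it (difference in mean log2 -0.65, exact permutation p = 0.1, the smallest that 3 against 3 allows). How many other regions lie likewise on fold enrichment was not counted, and on RPKM 37% of all H3K27me3 rows did. The peak was enriched in Basal, AE and C6AE and in none of the 3 treatments with Forskolin, where the -log10 q was 0.80 to 0.98. Only 74 to 136 peaks passed this threshold anywhere in those 3 libraries, against 4115 to 17766 in the other 3. Depth-scaled pileup was 1.90, 1.33 and 1.19 in Basal, AE and C6AE and 3.07, 1.10 and 0.756 in 6FAE, CFAE and C6FAE, so 6FAE turned from lowest to highest and the groups overlapped (difference -0.08, exact permutation p = 0.9). In 6FAE the pileup at the strongest peak was only 1.93 tags, so its place on either scale rests on few tags. Within each library the Foxa2 peak exceeded 99.4 to 99.9% of the listed peaks.

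Sox17 carried a domain of the same kind, 13943 bp long in Basal, 23837 bp in AE, 16547 bp in C6AE, 13987 bp in 6FAE, 13752 bp in CFAE and 16355 bp in C6FAE. The highest fold enrichment in its window was 4.40 in Basal, 4.16 in AE, 3.89 in C6AE, 2.48 in 6FAE, 3.21 in CFAE and 2.95 in C6FAE. The 6FAE value came from a 296 bp peak outside the domain, from 14587 to 14882 bp downstream of the start, beside 2.42 for its domain. As at Foxa2, the values with and without Forskolin did not overlap (difference in mean log2 -0.53, exact permutation p = 0.1). On depth-scaled pileup they did (difference 0.04, exact permutation p = 1), with 1.78, 1.14 and 0.979 in Basal, AE and C6AE and 2.69, 1.10 and 0.727 in 6FAE, CFAE and C6FAE. The pileup at the strongest 6FAE peak was only 1.69 tags, so the place of 6FAE on either scale rests on few tags. How many other regions separate likewise on fold enrichment was not counted, and on RPKM 37% of all H3K27me3 rows did. The strongest Sox17 peak exceeded 98.5 to 99.9% of the peaks of its library.

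H3K27me3 at Gata6 had a lower fold enrichment than at the other 2 genes in every library. Its highest fold enrichment was 2.98 in Basal, 2.44 in AE, 2.63 in C6AE, 1.93 in 6FAE, 2.47 in CFAE and 2.59 in C6FAE, no peak was enriched, and 1 of 6 libraries (C6FAE) listed a peak over the start. Its strongest peak exceeded 71.3 to 99.1% of the peaks of its library (median 92.6%). Listed peaks covered 6.51 to 30.9% of the window. The difference with Forskolin was -0.21 in mean log2 (exact permutation p = 0.3) and 0.36 on depth-scaled pileup (exact permutation p = 0.5). Pileup at the strongest H3K27me3 peaks of Gata6 was 1.09 to 3.84 tags.

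**Figure D3:**
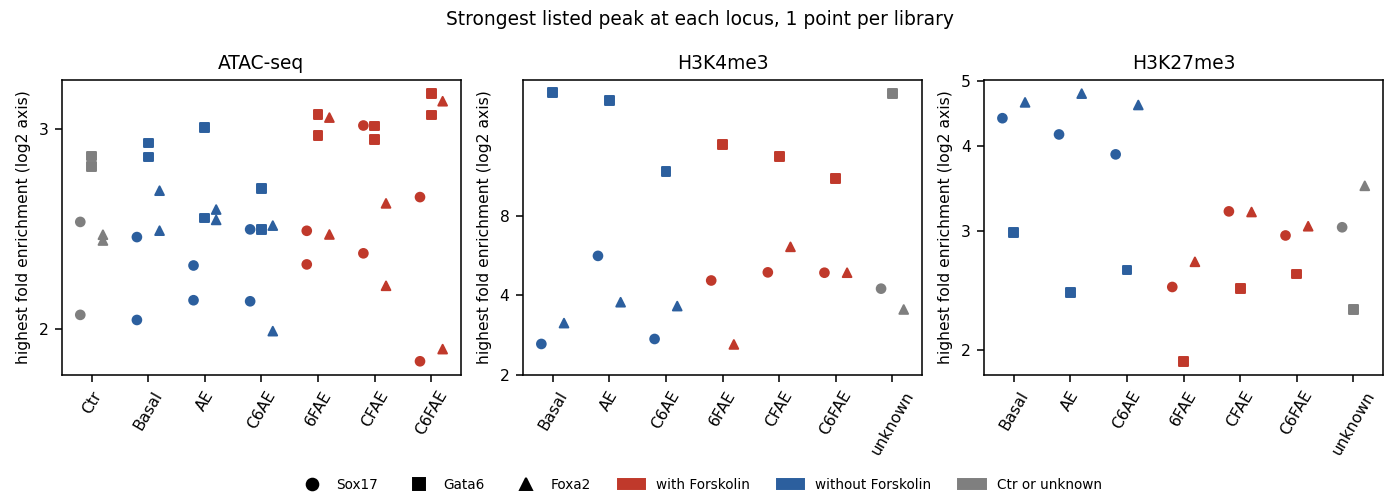
Highest fold enrichment of a listed peak in the window of Sox17 (circles), Gata6 (squares) and Foxa2 (triangles), 1 point per library on a log2 axis, by treatment. H3K4me3 at Gata6 stands at 11.2 to 23.5 and above the other 2 genes in every library, and H3K27me3 at Sox17 and Foxa2 is higher in Basal, AE and C6AE than in the 3 treatments with Forskolin. On depth-scaled pileup these H3K27me3 groups overlap.

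The H3K27me3 table gave a partly different order. Its rows over the starts of Foxa2 and Sox17 had the bounds of the AE peaks, and the row upstream of Gata6 began with the strongest Basal peak. High values of those rows in AE and Basal, and lower ones in C6FAE, are therefore descriptions and no independent support. The Foxa2 row (55900 bp, rank 127 of 19224 by length) had an RPKM of 15.0 in Basal, 12.5 in AE, 9.79 in C6AE, 13.7 in 6FAE, 7.45 in CFAE and 6.11 in C6FAE. The Sox17 row over the start (23837 bp) had 12.3, 10.5, 7.34, 11.5, 6.33 and 5.10 in the same order. In both rows CFAE and C6FAE were the lowest columns, and 6FAE lay between Basal and AE. The 2 Gata6 rows had 1.15 to 7.79 and 1.69 to 6.74, each lowest in 6FAE and highest in Basal, where they exceeded 86.3 and 75.8% of all rows. Of the 5 rows at the loci, 0 had all 3 treatments with Forskolin below all 3 without it, as 37% of all rows did, and 0 had them all above, as 1.95% did.

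Against Basal, 3 of the 5 H3K27me3 rows were at least 2-fold lower in C6FAE, as were 32.5% of all rows (5.36% were higher). They were the rows over Foxa2 (-1.17) and Sox17 (-1.12) and the row upstream of Gata6 (-1.11), beside a median of -0.68 over all rows. After the columns were scaled to a common median they differed by -0.33, -0.30 and -0.35, and the only row past the threshold was the short Sox17 row downstream of the gene, which was higher in C6FAE (1.09). Against 6FAE, the rows over Foxa2 (-1.05) and Sox17 (-1.04) passed as lower (23.6% of all rows were lower and 18.6% higher), whereas after median scaling the 2 Gata6 rows passed as higher (1.29 and 1.25). Against C6AE 0 of 5 rows passed (25.6% of all rows were lower and 1.56% higher). Against CFAE 0 of 5 rows passed (6.22% of all rows were lower and 4.58% higher).

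**Figure D4:**
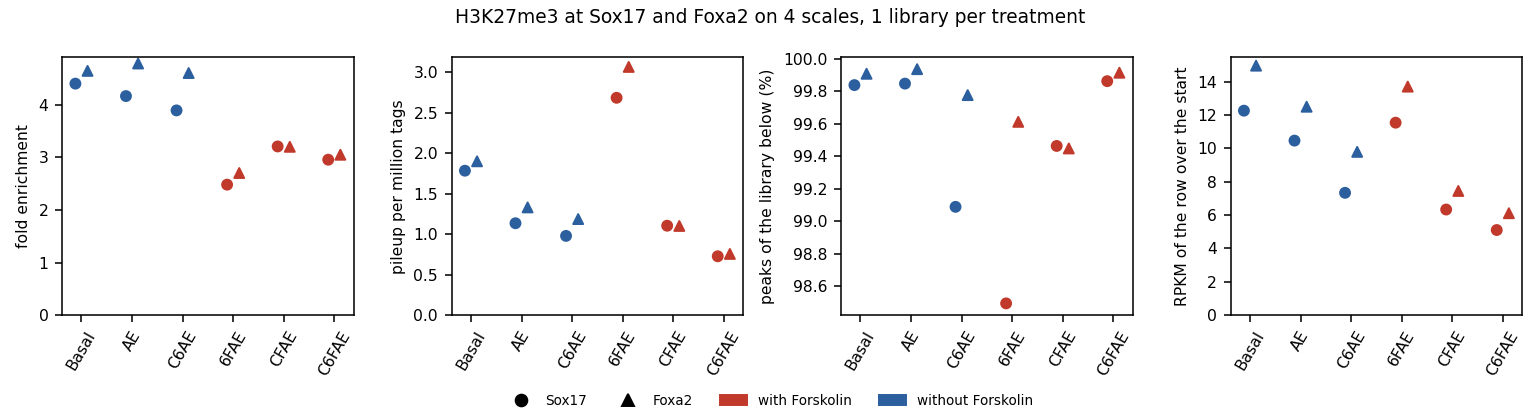
H3K27me3 at Sox17 (circles) and Foxa2 (triangles) by treatment on 4 scales, namely highest fold enrichment, depth-scaled pileup, share of the library's listed peaks with a lower fold (axis not from 0) and RPKM of the row over the start. Each point is 1 library or column. The 6FAE library is lowest by fold enrichment (2.48 and 2.70) and highest by depth-scaled pileup (2.69 and 3.07). These 6FAE values rest on a pileup of 1.69 and 1.93 tags.

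**Figure D5:**
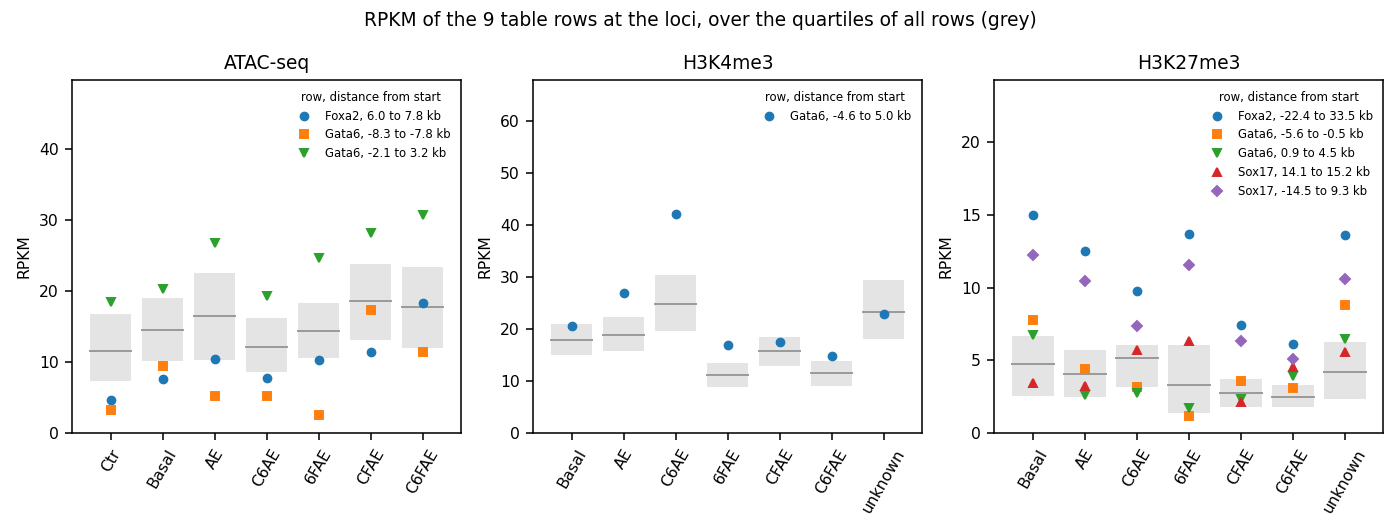
RPKM of the 9 table rows at the loci by treatment, with the legend giving each row's distance from the start in kb. Grey boxes span the lower to the upper quartile of all rows of the column and the line marks its median. The Gata6 row over the start lies above the upper quartile of ATAC-seq in every column, and the Foxa2 and Sox17 rows over the starts lie above the upper quartile of H3K27me3 in every column.

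Set side by side, the 3 loci had different combinations of the marks. Gata6 had H3K4me3 and ATAC-seq signal at its start in every library. Its H3K27me3 peaks were listed in every library but enriched in none. Foxa2 and Sox17 carried the H3K27me3 domain as listed peaks in every library, and by treatment it was enriched only in Basal, AE and C6AE. The H3K27me3 libraries with Forskolin had only 74 to 136 enriched peaks anywhere, against 4115 to 17766 in those of Basal, AE and C6AE. On depth-scaled pileup the groups overlapped at both genes. The stretch with enriched H3K4me3 that came from most libraries (6 of 6 at Gata6, 5 of 6 at the other 2) overlapped a listed H3K27me3 peak in 6 of 6 libraries at all 3 genes. These stretches were 10570 bp long at Gata6, 2213 bp at Sox17 and 3186 bp at Foxa2, and the H3K27me3 lists held 156575 to 491633 peaks. How often such stretches overlap a listed peak elsewhere was not computed, so no conclusion is drawn from this overlap. Over the start itself, an H3K27me3 peak was listed in 1 of 6 libraries at Gata6 and in 6 of 6 at Sox17 and Foxa2. Whether both marks were on the same chromosomes or in different cells cannot be told apart in bulk samples. Likewise, fewer cells with open chromatin and less opening per cell cannot be told apart.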

How the data were processed

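ATAC-seq, H3K4me3 and H3K27me3 were analysed from the peak lists and RPKM tables. Per the labels, the authors aligned reads to mm9 with Bowtie2, called peaks with MACS and averaged bins with deepTools 3.1.0. Per the file headers, MACS 2.1.2 ran on each library with no local background, a p-value limit of 0.05 and tags lengthened to 250 bp, and it set ChIP-seq against input. The authors' lists hold for each peak a fold enrichment (ratio), a pileup (signal in tags) and -log10 p and q, which were used as listed although the headers say q was not calculated. The deposited RPKM tables hold 1 column per treatment. Row ends coincide with listed peak ends in 100% of rows.

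Groups came from the labels. A locus was scored in each library by its highest fold enrichment within 10 kb. Libraries with and without Forskolin were compared by an exact two-sided permutation test on log2, 6 against 6 for ATAC-seq and 3 against 3 for each mark. Libraries were the units, also where a treatment had 2 of them, and p was not adjusted over loci and assays. Regions of the ATAC-seq table were tested with limma 3.58.1 in R 4.3.3, with Benjamini-Hochberg adjustment over all 36431 regions and 1 where no peak was listed. RPKM was compared as log2(RPKM + 1) with no test. Both tests were checked on simulated data. Intervals of limma cover the spread between libraries. No molecular identifiers were used, so tags may repeat molecules. The genes, lists and comparisons were chosen with earlier results of these data known. The genes named were Sox17, Gata6 and Foxa2 by rule, and other endoderm genes were not analysed here. Python 3.11.15, scipy 1.17.1, pandas 2.3.3 and matplotlib 3.10.9 were used. Promoter sequences are from RefSeq.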

Additional observations from a re-analysis of the deposited data

Results flagged for a closer look

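Among the 6 sets of 6 ATAC-seq libraries examined for a sample far from the others, 1 value stood apart by Dixon's criterion, which chance meets in about 1 in 20 sets. It was the strongest Foxa2 peak of C6AE replicate 1, with a fold enrichment of 1.99, below the other 5 libraries without Forskolin (2.44 to 2.65).

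The ChIP-seq libraries titled as control but labelled C6FAE entered no comparison, and they held signal at the loci above 3 tags. Their highest fold enrichment of H3K4me3 was 4.24 at Sox17, 23.3 at Gata6 and 3.54 at Foxa2, and that of H3K27me3 was 3.50 at Foxa2. Their condition cannot be told from the labels.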

How the results depend on the processing

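The difference with Forskolin in ATAC-seq at Gata6 kept its call in all 12 fits that left out 1 library (0.13 to 0.19), but not on depth-scaled pileup (0.0791) or the share of the window covered (1.36 percentage points, exact permutation p = 0.801). It also kept it for the peak over the start (0.16), an alternative chosen after seeing the data. At Sox17 it passed only as the share covered (8.26 percentage points, exact permutation p = 0.0455), and leaving out 1 library gave 0.04 to 0.18 in log2 fold. The Ctr libraries, in neither group, covered 11.3 and 25.1% of that window. At Foxa2 the difference with Forskolin turned negative on depth-scaled pileup (-0.0622), with a window of 5 kb (-0.0044), without 6FAE replicate 2 (-0.000602) and without C6FAE replicate 1 (-0.0102), and leaving out 1 library gave -0.0102 to 0.135. For H3K4me3, the direction turned at Gata6 by share covered (3.08) and at Foxa2 on depth-scaled pileup (-0.12). For H3K27me3 it turned on depth-scaled pileup at Sox17 (0.0404) and Gata6 (0.36), by share covered at Gata6 (2.97), and, in an alternative chosen after seeing the data, as RPKM over the column median at Sox17 (0.27) and Foxa2 (0.19). Leaving out 1 library gave 0.28 to 0.84, -0.80 to -0.30 and 0.02 to 0.64 for H3K4me3 at Sox17, Gata6 and Foxa2, and -0.62 to -0.43, -0.29 to -0.08 and -0.70 to -0.58 for H3K27me3. The cause was not tested.

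In 110 limma fits, 0 of 330 tests of the 3 regions passed, with a lowest adjusted p of 0.225. Over all 36431 regions, C6FAE against Ctr gave 148 higher and 22 lower on depth-scaled pileup and 211 and 39 with 0.5 in place of 1 where no peak was listed. These 2 settings gave 8 and 2, and 64 and 38, against C6AE. With 0.5, calls were 22 and 28 against 6FAE, 19 and 34 against CFAE, and 54 and 8 for Forskolin. The Forskolin comparison also gave 86 and 5 without 6FAE replicate 1, 122 and 5 without C6AE replicate 1 and 2 and 0 without either Ctr library. The region over the Gata6 start turned in C6FAE against Ctr on depth-scaled pileup (-0.0033), median centring (-0.0135) and quantile normalization (-0.0437), and against 6FAE under the last 2 (-0.0528 and -0.12). The region upstream of Gata6 turned against C6AE under the same 2 (-0.0376 and -0.21), without C6AE replicate 2 (-0.31) and without C6FAE replicate 1 (-0.50), its range without 1 library being -0.50 to 0.89. It also turned against CFAE without C6FAE replicate 2 (0.61) and without CFAE replicate 1 (0.69), with a range of -0.86 to 0.69, and for Forskolin without C6FAE replicate 1 (-0.06) and without CFAE replicate 1 (-0.0892), with a range of -0.0892 to 0.43. The region 3' of Foxa2 turned without C6FAE replicate 1 against 6FAE (-0.11, range -0.11 to 0.62) and CFAE (-0.18, range -0.18 to 0.55). Replicate numbers did not pair the libraries (21 pairs of treatments, correlations -0.15 to 0.0536, 0 over 0.1), and with the replicate block 0 of the 3 regions were called in any comparison.

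Counts of RPKM rows past 2-fold moved as follows. For ATAC-seq against Ctr the 2 rows became 0 with a pseudocount of 10 or a filter on low RPKM and 1 with quantile normalization or a 5 kb window. Against C6AE the 2 became 0 with a pseudocount of 10, both scalings or the filter and 1 with 5 kb. Against 6FAE the 1 became 0 with a pseudocount of 10, the filter or 5 kb and 2 at 1.5-fold, and against CFAE the 0 became 1 at 1.5-fold. The H3K4me3 row lower than in C6AE was lost with both scalings (0). For H3K27me3 against Basal the 3 became 0 with a pseudocount of 10 and 1 with both scalings. Against C6AE the 0 became 1 with both scalings or at 1.5-fold. Against 6FAE the 2 became 4 with a pseudocount of 0.1 or at 1.5-fold, 0 with a pseudocount of 10 and 1 with quantile normalization. Against CFAE the 0 became 1 with a pseudocount of 0.1, both scalings or 1.5-fold. The 6FAE H3K27me3 and C6AE H3K4me3 libraries held under 1000000 tags, and without them, an alternative also chosen after seeing the data, no direction turned in the tests of the marks.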

Other observations

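In the libraries of unknown condition, the H3K4me3 row over the Gata6 start had an RPKM of 22.8, and the H3K27me3 rows over Foxa2 and Sox17 had 13.6 and 10.6. The H3K27me3 peak over Foxa2 in that library was 46960 bp long and that over Sox17 20820 bp, and both were enriched (-log10 q of 1.99 and 1.42).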
